A study of Mus musculus with 6 samples.

Results

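The cells described here were perineurial cells of mouse dorsal skin that carried transcripts of Sfrp5, Hcn4, Cldn22, Lypd2 and C2. Perineurial cells wrap bundles of nerve fibres in a sheath joined by tight junctions and coated on both faces by basement membrane, and the sheath forms part of the barrier between nerve and surrounding tissue. They are non-endothelial cells, yet in skin they were captured through a reporter driven by Cdh5, the gene of VE-cadherin. Members were chosen from measured values in 3 steps. Cells were kept if they had between 200 and 5000 genes detected and if less than 10% of their UMIs were mitochondrial (UMIs are unique molecular identifiers, each tagging 1 captured mRNA molecule). Those without a UMI of Ptprc (pan-leukocyte) or Pecam1 (pan-endothelial) and with a UMI of at least 3 of Klf5, Cldn1, Wnt6, Fzd2, Ntng1, Moxd1, Ptch1 and Perp formed a perineurial gate. Each gated cell was then given an H score, the number of Sfrp5, Hcn4, Cldn22, Lypd2 and C2 with a UMI, and a T score, the number of Slc6a13, Thbs4, Crabp2, Tenm2 and Foxd1 with a UMI. Cells with an H score of at least 1 that was above the T score were the members (H members), and cells with the higher T score (T members) were the population most like them. The rule found 1277 H members among 2535 gated cells (50.4%), 20941 kept cells (6.10%) and 27418 barcodes in all. The gate also held 777 T members, 461 cells with equal scores above 0 (18.2%) and 20 with neither set.

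The cells were sorted by FACS as tdTomato+ (per the study's text also Krt14-H2BGFP-, which leaves out labelled keratinocytes, in WT) from single mice, with 2 mice and 2 libraries in each of 3 groups. WT mice were taken in telogen, the resting phase of the hair cycle, at postnatal day (PD) 20 or in anagen, the growing phase, at PD 32, and both carried tdTomato, Cdh5-CreERT2 and Krt14-H2BGFP on a mixed C57BL/6;CD1 strain. Alk1 KO mice were at PD 25 (telogen) and carried Alk1 flox/flox, tdTomato and Cdh5-CreERT2 on C57BL/6. All groups received tamoxifen at PD 17 (200 µg/g, from the study's methods), which was 3 days before collection in WT telogen, 15 in WT anagen and 8 in the KO. Alk1 (gene Acvrl1) is a TGF-β family receptor. Cre was driven by the Cdh5 promoter, so the deletion was not limited to perineurial cells but reached the endothelium of the same skin, and sequencing was limited to cells sorted for the reporter. KO and WT differed also in age, days after tamoxifen, strain and the Krt14-H2BGFP allele, so that genotype cannot be told apart from these. Sex, read below from Xist and Ddx3y, differed in part as well, and its part in the KO comparison was not tested. A genotype field in the sample labels reads wild type for all 6 libraries, and the KO was assigned here from the sample titles.

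H members numbered 252 and 495 in WT telogen S1 and S2, 110 and 363 in WT anagen S1 and S2, and 32 and 25 in KO S1 and S2. Their summed depth was 1869608 and 3151912 UMIs, 755017 and 1692474 UMIs, and 141007 and 82090 UMIs in the same order. Median depth per member was highest in WT telogen S1 (6636.5 UMIs, 2586 genes) and lowest in KO S2 (3207 UMIs, 1417 genes). The KO libraries therefore carried far fewer molecules, and 3 UMIs, used as the floor for a gene without a UMI, corresponded to 13.4 CPM (counts of UMIs scaled to a library total of 1e6) over both KO libraries against 0.597 CPM over both WT telogen libraries. Over 9455 genes, the summed profiles of the 2 libraries correlated with Pearson's r = 0.972 in WT telogen, 0.944 in WT anagen and 0.690 in the KO (across genes, which are not independent replicates). No barcode sequence of an H member occurred in more than 1 library, whereas 80 of 27337 barcode sequences did so among all cells. Xist, the X-inactivation RNA, stood at 657 and 0 CPM in WT telogen, 0 and 0.591 CPM in WT anagen and 823 and 1059.8 CPM in the KO, and the Y-linked Ddx3y stood at 0 in the 3 libraries rich in Xist and at 114, 121 and 106 CPM in the other 3. WT telogen thus held both sexes, WT anagen only Ddx3y-positive and the KO only Xist-positive mice. The haemoglobin gene Hbb-bs stood at 885 CPM in WT anagen S2 and at or below 14.2 CPM in the other 5 libraries.

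The 5 genes that chose the members differed widely in level. Sfrp5, a secreted inhibitor of Wnt ligands (chromosome 19, 42197971 to 42202252, minus strand, mm10), was the most abundant at 2923 and 3013 CPM in WT telogen, 3922 and 4318 CPM in WT anagen and 1794 and 2741 CPM in the KO. C2, a complement protease (chromosome 17, 34862604 to 34898265, minus strand), stood at 1056 and 1089.8 CPM in WT telogen, 1171 and 1309 CPM in WT anagen and 695 and 731 CPM in the KO. Hcn4, a hyperpolarization-activated channel best known from cardiac pacemaker cells (chromosome 9, 58823412 to 58863175, plus strand), stood at 333 and 446 CPM in WT telogen, 313 and 447 CPM in WT anagen and 766 and 292 CPM in the KO. Both KO values lay below all WT values for Sfrp5 and C2, whereas those of Hcn4 spanned the WT range. Cldn22, a claudin of tight junctions (chromosome 8, 47824482 to 47825476, plus strand), stood at 246 and 353 CPM in WT telogen, 290.1 and 291 CPM in WT anagen and 461 and 1413 CPM in the KO. Lypd2, a GPI-anchored protein of the Ly6 family (chromosome 15, 74732247 to 74734329, minus strand), stood at 642 and 705 CPM in WT telogen, 842 and 865 CPM in WT anagen and 7.09 and 0 CPM in the KO. Lypd2 had a UMI in 84.6 to 89.3% of members in the 4 WT libraries, in 1 of 32 members of KO S1 and in none of 25 of KO S2. Chromosome positions are from GENCODE M21, and all 10 set genes are protein-coding.

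**Figure D1:**
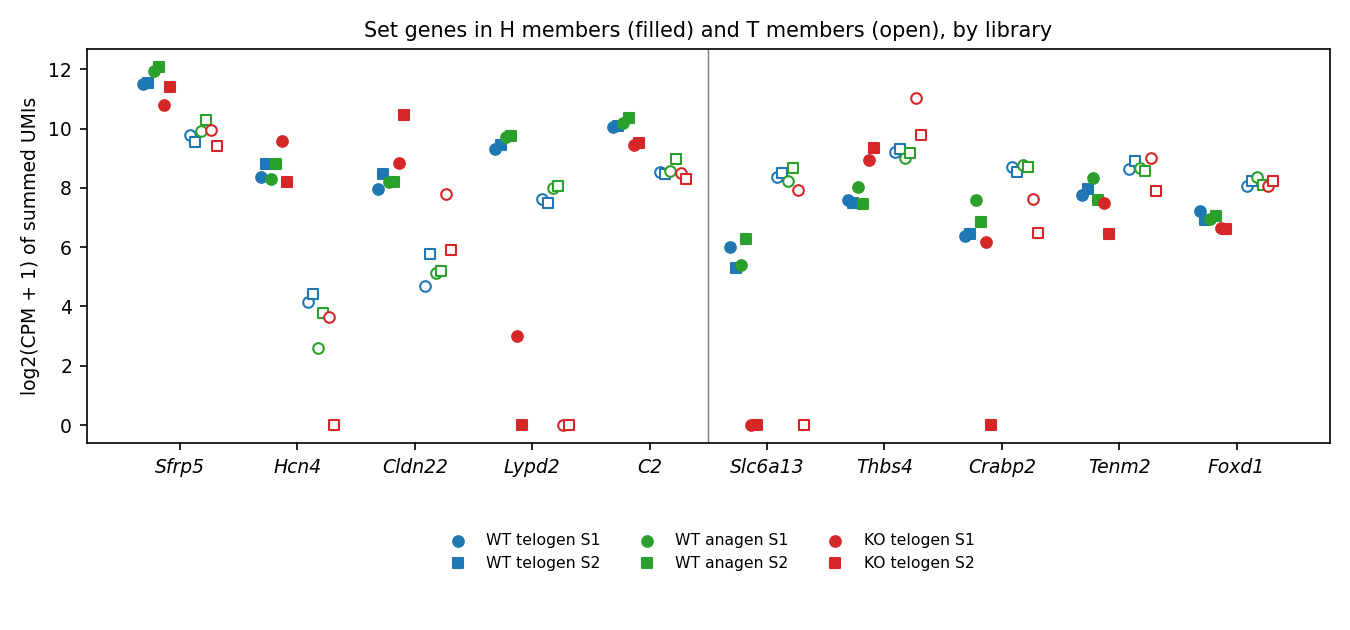
Level of the 10 set genes as log2(CPM + 1) of summed UMIs, one point per library, in H members (filled) and T members (open), with the H set to the left of the line and the T set to the right. These genes chose the cells, so the separation is a description. Lypd2 sits at 642 to 865 CPM in H members of the 4 WT libraries and at 7.09 and 0 CPM in the KO.

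Members graded into the rest of the gate without a gap. Of the 1277, 560 (43.9%) had an H score of 5 and 39 (3.05%) a score of 1, but only 185 (14.5%) lacked every T gene, and 402 (31.5%) exceeded their T score by 1. Just inside the threshold, these 402 cells held 2196 CPM of Sfrp5, 203 CPM of Hcn4 and 487 CPM of Lypd2, and the 461 gated cells just outside, with equal scores, held 1989, 77.8 and 454 CPM. The H genes were not private to the members either: in T members of the 4 WT libraries Sfrp5 stood at 751 to 1247 CPM and Lypd2 at 181 to 265 CPM, while Hcn4 stood at 4.99 to 20.5 CPM. Each set gene was also left out in turn and cells were split again on the remaining 9. On the H side of that split Hcn4 was 10.3-fold higher, Cldn22 2.85-fold, C2 2.37-fold and Sfrp5 2.34-fold (ratios of the mean over 6 libraries), each in 6 of 6 libraries, and Lypd2 was 2.22-fold higher, in 5 of 6. By the same ratio Slc6a13 stood at 0.445 of its T-side level, Foxd1 at 0.536, Crabp2 at 0.600 and Tenm2 at 0.769, whereas Thbs4 stood at 1.10. Foxd1 was lower on the H side in 6 of 6 libraries and the other 4 in 5 of 6, with Crabp2 at 0 on both sides of KO S2 and the other 3 higher on the H side there. In KO S1 the higher H side was 1 UMI against 0 for Lypd2, 383 against 379 CPM for Cldn22 and 1586 against 1507 CPM for Sfrp5. The set genes had been picked in these same cells, so this split is a description too.

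**Figure D2:**
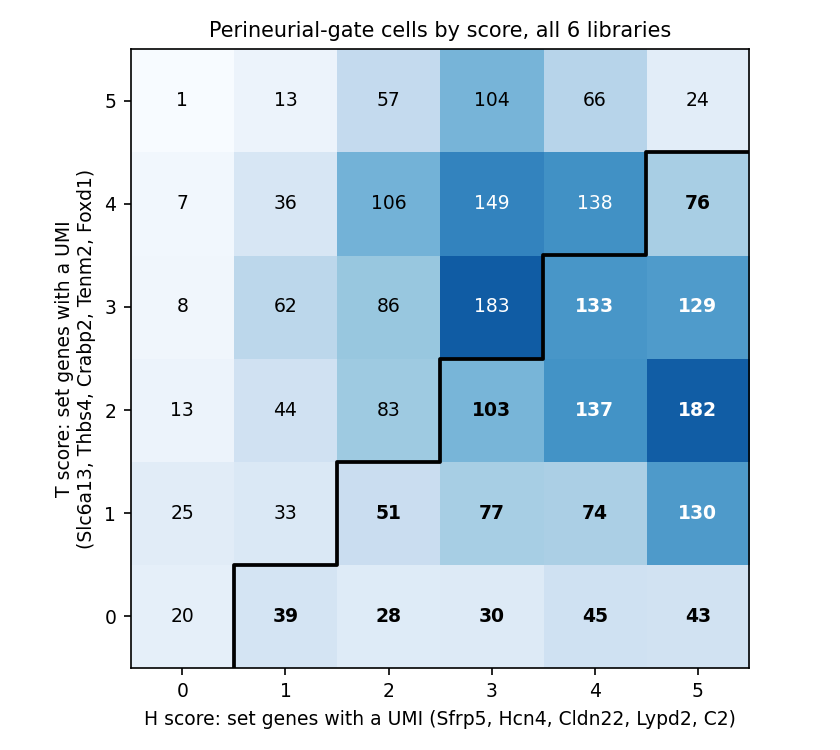
Number of perineurial-gate cells at each H score (horizontal axis, genes with a UMI) and T score (vertical axis, genes with a UMI), summed over the 6 libraries. The 1277 H members are the bold counts below and right of the black line. The most filled positions are scores of 3 and 3 (183 cells, equal scores) and an H score of 5 with a T score of 2 (182 cells, within the H side).

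Markers outside the rule were checked against the name perineurial. All 10 of a list of perineurial markers were detected in H members, and their summed level was 3172 and 3060 CPM in WT telogen, 3474 and 3972 CPM in WT anagen and 2929 and 3094 CPM in the KO. The most abundant was Slc2a1, the glucose transporter GLUT1 of barrier cells, at a mean of 1028 CPM. Cdh5 stood at 179 and 213 CPM in WT telogen, 242 and 209.8 CPM in WT anagen and 333 and 329 CPM in the KO. After each cell was thinned to 1500 UMIs, 26.9% of H members (1255 cells, median depth 5377 UMIs before thinning) had a Cdh5 UMI, against 59.3% of endothelial-like cells (median 5568 UMIs) and 0.461% of immune-like cells (median 11981 UMIs), the background for a gene that leukocytes lack. Markers of other cell types were near 0 for pericytes (summed level at most 10.6 CPM, with Higd1b and Myh11 at 0) and adipocytes (at most 1.32 CPM, with Car3, Cidec and Plin1 at 0), and low for endothelial cells (12.2 to 91.4 CPM) and immune cells (0 to 80.9 CPM). Keratinocyte markers summed to 12.2 to 70.2 CPM, with Krt1 and Krt14 at 0. Schwann cell markers summed to 322 and 193 CPM in WT telogen, 216 and 22.5 CPM in WT anagen, and 0 and 12.2 CPM in the KO. Fibroblast markers summed to 7841 to 12731 CPM, led by Dcn (mean 7079 CPM).

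H members differed from T members of the same mice in a broad set of genes outside the rule. Of 8110 genes tested with the library as a block, 586 were higher in H members (7.23%) and 702 lower (8.66%), where a call needed a fold above 1.3 and an adjusted p below 0.05. Of these 1288 genes, 293 were higher and 303 lower in 6 of 6 libraries, against 14.1% of all tested genes that lay the same way in 6 of 6. Without WT telogen S1 or S2 the calls numbered 621 of 7391 and 625 of 7374 tested genes. The p-values measure how regularly both kinds of cell differed over mice, not whether there are 2 kinds, since the split was itself drawn on these cells. The largest difference among genes higher in 6 of 6 libraries was that of Rspo1, a secreted amplifier of Wnt signalling. It ranged over the 6 libraries from 60.9 to 219 CPM (median 143) in H members and from 2.5 to 23.2 CPM (median 14.5) in T members, a log2 difference of 4.07 ± 0.23 (SE), adjusted p = 2.2e-10. Gpx3, the extracellular glutathione peroxidase, ranged over the 6 libraries from 87.4 to 426 CPM (median 242) in H members and from 4.99 to 104 CPM (median 20.9) in T members, a log2 difference of 3.61 ± 0.22 (SE), adjusted p = 2.5e-10. Fmod, the collagen-binding proteoglycan fibromodulin, ranged over the 6 libraries from 73.1 to 185 CPM (median 132) in H members and from 0 to 13.7 CPM (median 10.3) in T members, a log2 difference of 3.54 ± 0.18 (SE), adjusted p = 4.5e-11. The ranges of these 3 genes did not overlap between H and T members except for Gpx3, whose highest T value, in KO S2, lay above its lowest H value. Abcb1a, which encodes the efflux pump P-glycoprotein of barrier endothelium, ranged over the 6 libraries from 74.9 to 298 CPM (median 123) in H members and from 0 to 57.9 CPM (median 9.38) in T members, a log2 difference of 3.42 ± 0.20 (SE), adjusted p = 2.5e-10. Among genes higher in 6 of 6 libraries, the other 6 of the 10 largest differences were Itih2 (3.38), Pabpc1l (3.23), the amino acid transporter Slc43a1 (3.17), the central complement protein C3 (2.94), the matricellular protein Postn (2.79) and Ramp3 (2.79), a subunit of adrenomedullin receptors.

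Among the genes lowest in H members were 2 transcription factors. Etv4, an ETS factor, ranged over the 6 libraries from 4.14 to 12.2 CPM (median 6.49) in H members and from 14.8 to 78.8 CPM (median 57.3) in T members, a log2 difference of -3.35 ± 0.24 (SE), adjusted p = 2.3e-09. Dusp6, an ERK phosphatase, ranged over the 6 libraries from 0 to 30.5 CPM (median 13.5) in H members and from 34.7 to 157 CPM (median 93.9) in T members, a log2 difference of -2.80 ± 0.18 (SE), adjusted p = 9.5e-10. Sox9, a transcription factor of cartilage, neural crest and hair follicle lineages, ranged over the 6 libraries from 0 to 78.0 CPM (median 18.9) in H members and from 89.8 to 579 CPM (median 119) in T members, a log2 difference of -2.72 ± 0.17 (SE), adjusted p = 5.6e-10. In each library the H value of these genes was the lower one. For Etv4 the values of 12.2 and 14.8 CPM were both of KO S2 and were 1 UMI each, over 82090 and 67407 UMIs. The direction of Etv4 in that library therefore rests on depth alone. Cxadr, an adhesion protein of tight junctions, ranged over the 6 libraries from 21.3 to 49.8 CPM (median 36.2) in H members and from 119 to 208 CPM (median 156) in T members, with no overlap and a log2 difference of -2.13 ± 0.14 (SE), adjusted p = 9.5e-10. Among genes lower in 6 of 6 libraries, the remaining 6 of the 10 largest differences were Lgals7 (-3.21), Myoc (-2.89), the organic cation transporter Slc22a3 (-2.84), the neurotrophin receptor Ngfr (-2.56), Myzap (-2.15) and 1500009L16Rik (-2.11). Lgals7 is a keratinocyte galectin, and keratinocyte markers in T members summed to 27.3 to 38.8 CPM in WT telogen, 680 and 709 CPM in WT anagen and 57.9 and 1469 CPM in the KO; their part in this difference was not tested. The WT sort was against Krt14-H2BGFP, an allele that the KO mice did not carry. Schwann cell markers summed to 2004 and 1409 CPM in T members of WT telogen and to at most 89.0 CPM in T members of the other libraries.

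**Figure D3:**
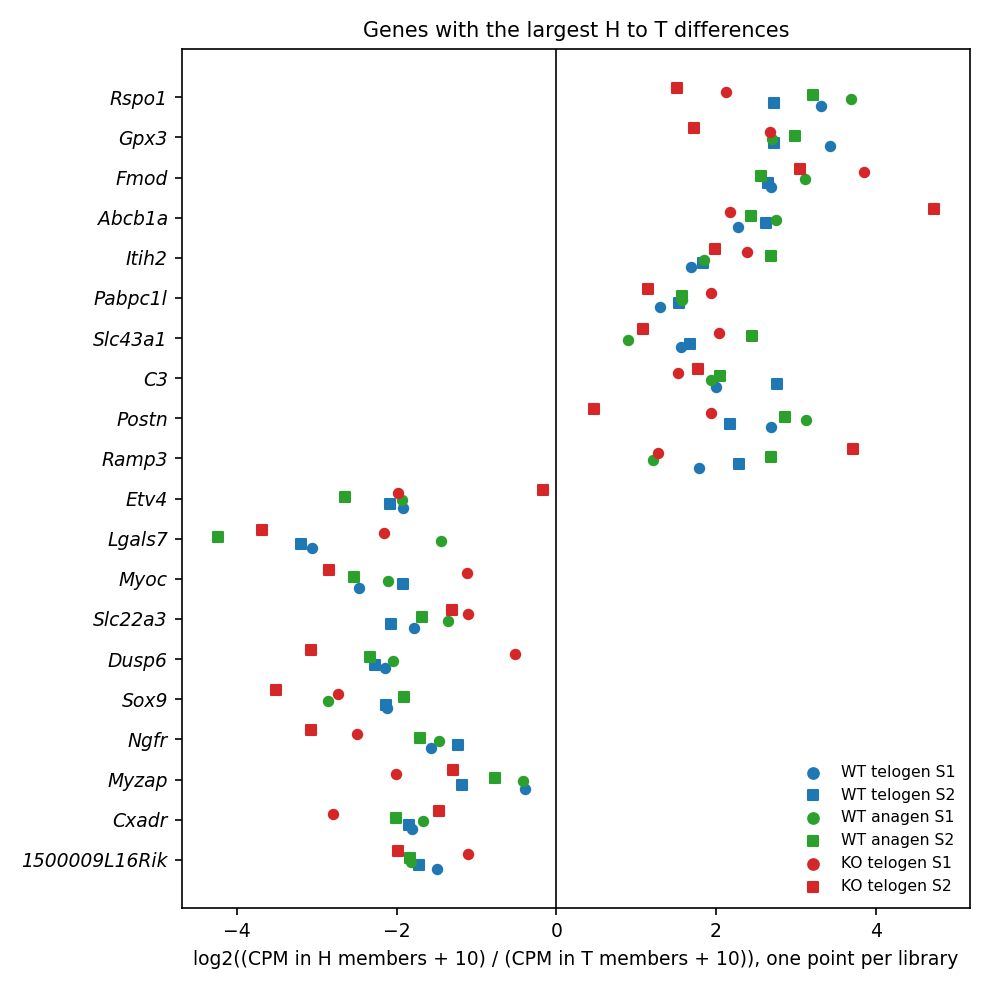
Log2 ratio of the level in H members to that in T members, with 10 CPM added to both, for the 10 genes highest and the 10 lowest in H members among those on the same side in 6 of 6 libraries, one point per library. All 6 libraries of each gene lie on the same side of 0, which was part of how the genes were chosen.

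Across the score margin several of these genes had intermediate levels at intermediate margins, but not all did. In the 4 WT libraries (mean ± SD, n = 4), Rspo1 stood at 4.18 ± 3.51 CPM in cells whose T score led by 2, 44.0 ± 10.3 at equal scores, 74.2 ± 29.7 where the H score led by 1, 181 ± 31.8 at 2 and 228 ± 77.6 at 3 to 5. Abcb1a ran over the same margins from 8.57 ± 5.78 through 39.7 ± 15.0 to 136 ± 22.2 CPM. Among H members alone, Postn stood at 360.4 ± 149 CPM at a margin of 1 and 1021 ± 334 CPM at 3 to 5. Sox9 ran the other way, from 129 ± 15.6 CPM at a T lead of 2 through 52.1 ± 15.7 at equal scores and 34.4 ± 18.1 at an H lead of 1 to 2.98 ± 4.57 CPM at 3 to 5. Etv4 ran from 69.0 ± 17.2 to 11.6 ± 2.41 and 0.917 ± 1.12 CPM over the T lead of 2 and the H leads of 1 and 3 to 5. C3, Gpx3 and Lgals7 did not run evenly. C3 stood at 33.2 ± 54.6 CPM at a T lead of 2, 8.59 ± 16.1 at 1 and 24.35 ± 26.7 at equal scores. Gpx3 stood at 23.6 ± 32.5 CPM at a T lead of 2 and 8.66 ± 6.81 at 1, and Lgals7 at 392 ± 164 and 587 ± 412 CPM. Margins depend on which transcripts were captured in a cell, and each margin held at least 19 cells in every WT library. These values are given without a test.

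**Figure D4:**
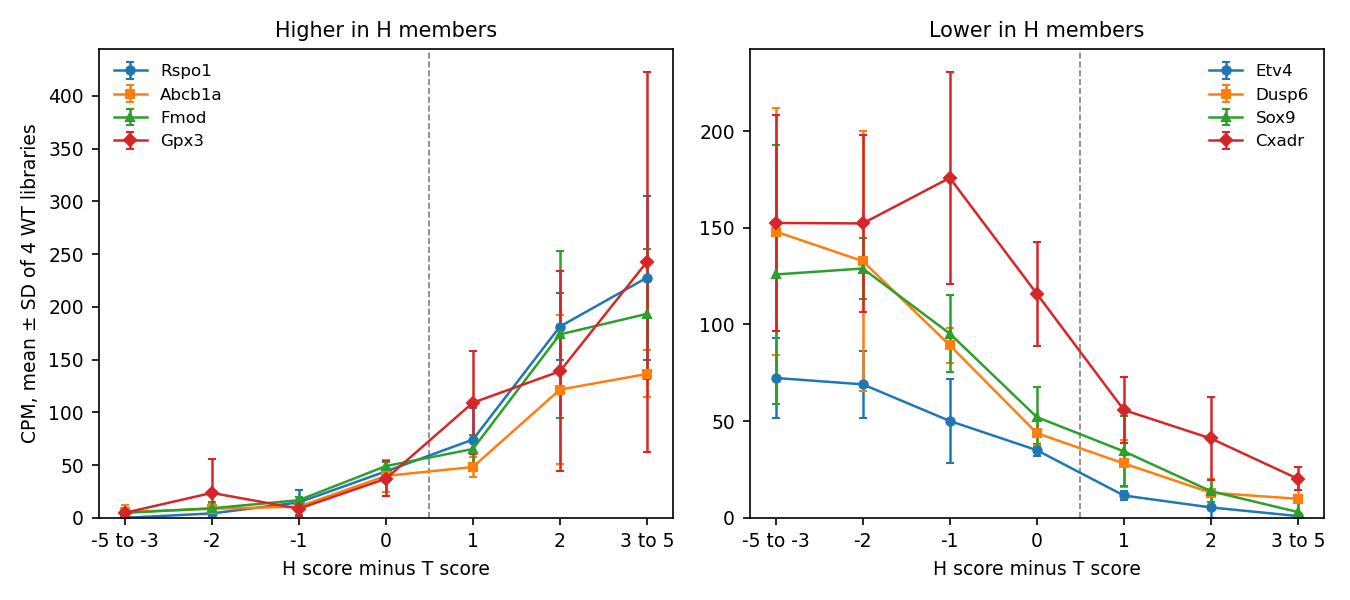
CPM (mean ± SD of 4 WT libraries) of 4 genes higher (left) and 4 genes lower (right) in H members, against the H score minus the T score of gated cells; H members lie right of the dashed line, and cells with equal scores are at 0. At equal scores Rspo1 (44.0 CPM) and Sox9 (52.1 CPM) lie between their levels at a T lead of 2 and at an H lead of 1.

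Grouped by role, genes of complement, barrier transport and matrix were called higher more often than lower, beside 7.23% higher and 8.66% lower of all genes tested. Values in this and the next paragraph are log2 differences, H minus T, of genes that passed the test unless stated. Of 20 tested genes of Wnt signalling, 8 were called higher and 1 lower, but the values of all 20 split into 11 above and 9 below 0 (median 0.01, against 0.00 over all genes tested). Beside Rspo1, the higher ones included the secreted inhibitor Sfrp4 (3.42), the ligands Wnt9a (1.88), Wnt5a (1.75) and Wnt10a (0.91) and the receptor Fzd4 (0.89). Wnt10a was higher in 6 of 6 libraries, Wnt9a and Fzd4 in 5, and Sfrp4 and Wnt5a in the 4 WT libraries, with H and T members of both KO libraries at 0. Of 17 barrier transporters, 9 were higher and 4 lower (median 0.46). The efflux pumps Abcb1a and Abcg2 (1.92), the water channel Aqp1 (1.45) and the glucose transporter Slc2a1 (1.21) were higher, and the cotransporter Slc12a2 (-1.39) was among the lower. Complement genes stood at 8 higher and 2 lower of 11 (median 1.09), with C3, C4b (1.90), the regulator Vtn (1.81) and the protease C1ra (1.24) among the higher and the regulator Clu (-1.92) among the lower. C2, which is of the same cascade, had chosen the cells and is not counted. Of 36 genes of collagens and other matrix proteins, 16 were higher and 3 lower (median 0.42), among them Fmod, Postn, the crosslinking enzymes Loxl1 (1.46) and Lox (1.12), the proline hydroxylase subunit P4ha2 (1.2) and Col3a1 (0.59). Basement membrane and integrin genes were 10 higher and 4 lower of 28 (median 0.09), with Fras1 (2.26), the type IV collagen chains Col4a5 (1.44) and Col4a3 (1.03) and the integrins Itga7 (1.34) and Itga1 (0.87) higher and Itga5 (-1.18) lower.

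Junction, channel and signalling genes were divided. Of 13 tight junction genes, 3 were higher and 6 lower, with Ocln (-1.33) and Cxadr lowest. Of 14 ion channels, 2 were higher, the potassium channels Kcnj2 (2.15) and Kcnk5 (1.75), and 4 lower, namely Kcnj13 (-1.31), Cacna1h (-1.04), Piezo1 (-0.61) and Clic4 (-0.58); Hcn4 had chosen the cells and is not counted. Of 7 hedgehog genes, the co-receptor Gas1 (1.49) was higher and the transcription factors Gli3 (-1.23) and Gli1 (-0.66) lower. Of 32 genes of BMP and TGF-β signalling, 5 were higher and 6 lower. The higher included the inhibitor of DNA binding Id4 (2.19) and the BMP antagonist Chrdl1 (1.47), and the lower the ligands Bmp7 (-2.35) and Tgfb1 (-1.69) and the latent TGF-β binding proteins Ltbp2 (-2.69) and Ltbp1 (-2.10). Of 17 nerve growth and guidance genes, 2 were higher, Ntn4 (1.03) and Ntn1 (0.70), and 5 lower, among them Efnb2 (-1.0) and Nrp2 (-0.86). Of 6 retinoid genes, 3 were higher, among them the reductase Dhrs3 (2.26) and the receptor Rarg (0.73), and none lower; Crabp2, which had chosen the T members, is not counted. Of 23 developmental transcription factors, 1 was higher and 8 lower, with Etv4, Sox9, Etv5 (-1.83), Foxc2 (-1.49), Hoxc10 (-1.08) and Tbx18 (-1.04) lowest. The Ly6 family had 3 of 4 genes higher, Ly6a (2.70), Ly6c1 (1.99) and Ly6e (0.59), beside Lypd2, and Ly6a is also abundant in endothelium and fibroblasts. Of 18 immediate-early and heat-shock genes, which respond to cell isolation, none was higher and 8 were lower, among them Hsph1 (-0.84) and Dusp1 (-0.57). None of 39 oxidative phosphorylation genes passed in either direction (median 0.07). Of 9 perineurial markers outside the rule, 4 were higher (Slc2a1 (1.21), Ntn4, Tjp1 (0.51), Cdh5 (0.45)) and 2 lower (Cxadr, Gli1); Krt19, at a log2 difference of 0.28 ± 0.19 (SE), adjusted p = 0.38, did not pass. Mesothelin Msln (1.99), of 3 keratins and epithelial genes, was higher. The fibroblast markers Clec3b (2.71), Dpt (2.0) and Mfap5 (0.46) were higher and Lum (-1.10) and Dcn (-0.46) lower, and of skeletal muscle markers Tnnt3 (1.95) was higher while Myh4 was at 0.

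Whether members made up a different part of the gate in each condition was asked over libraries. Their share of gated cells was 44.1% (95% exact binomial interval 39.9 to 48.2) and 57.6% (54.2 to 60.9) in WT telogen, 38.6% (32.9 to 44.5) and 51.6% (47.8 to 55.3) in WT anagen, and 47.1% (34.8 to 59.6) and 54.3% (39.0 to 69.1) in the KO; the intervals cover counting error only. Libraries of one group differed by more than the groups did. Anagen minus telogen was -5.73 percentage points (45.1% ± 9.17 against 50.8% ± 9.55, SD, n = 2 each; exact two-sided permutation p = 0.667). KO minus WT telogen was -0.104 points (50.7% ± 5.15 against 50.8% ± 9.55; exact permutation p = 1), and the smallest p that 2 against 2 libraries allow is 0.333. Leaving out single libraries turned the sign of both differences (-12.5 to 1.02 points and -6.85 to 6.65 points). Because Lypd2 is one of the 5 genes of the score, the KO share was also computed without it, which gave 12.0 points, while thinning each cell to 3000 UMIs gave -7.63 points (48.2% against 55.8%; exact permutation p = 0.333 for both). As a share of all kept cells, the gate itself held 18.0% and 18.3% in WT telogen, 6.63% and 13.8% in WT anagen, and 3.97% and 2.35% in the KO. Median depth of gated cells, which need 3 detected genes, was 6854 and 5883.5 UMIs, 6388 and 4388.5 UMIs, and 4113 and 3349.5 UMIs in the same order, and the part of depth or of sorting in this share was not tested.

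In H members of the WT mice no gene passed the test between anagen and telogen. edgeR called 0 of 9757 genes (0%), with 1235 genes at an unadjusted p under 0.05, and DESeq2 called 72. Leaving out a library gave 134 genes without WT telogen S1, 152 without S2, 28 without WT anagen S1 and 109 without S2. The smallest p-values among higher genes belonged to the fatty acid carrier Fabp4, Crip1 and the ribosomal gene Rpl41. Fabp4 stood at 17.1 and 23.2 CPM at telogen and 71.5 and 96.9 CPM at anagen (log2 difference 2.17 ± 0.23 (SE), adjusted p = 0.053). Crip1 stood at 601 and 683 CPM at telogen and 1354 and 1367 CPM at anagen (1.2 ± 0.13 (SE), adjusted p = 0.053) and Rpl41 at 1309 and 1404 CPM at telogen and 2612 and 2468 CPM at anagen (1.02 ± 0.12 (SE), adjusted p = 0.071). For all 3 genes both anagen values lay above both telogen values, but 47.3% of all tested genes had no overlap between the stages. Fabp4 is also a gene of capillary endothelium, and endothelial markers in H members summed to 35.8 and 57.4 CPM at telogen and 91.4 and 90.4 CPM at anagen, with 4 of 4 tested at a log2 difference above 0 (median 1.36) and none called; the part of endothelial RNA in Fabp4 was not tested. Among lower values, Manf, a secreted factor of the endoplasmic reticulum, stood at 418 and 362 CPM at telogen and 187 and 208 CPM at anagen (-0.86 ± 0.14 (SE), adjusted p = 0.1), and Tsc22d3, a glucocorticoid target, at 328 and 509.9 CPM at telogen and 163 and 161 CPM at anagen (-1.27 ± 0.21 (SE), adjusted p = 0.1). Pf4, a platelet and macrophage chemokine, stood at 12.3 and 15.2 CPM at telogen and 0 and 0 CPM at anagen, beside immune markers that summed to 39.0 and 80.9 CPM at telogen and 25.2 and 4.73 CPM at anagen; the part of immune RNA in it was not tested. Of the H set genes, Sfrp5 ranged from 2923 to 4318 CPM and Lypd2 from 642 to 865 CPM over the 4 WT libraries. In every list 0 genes were called. Complement genes had 13 of 13 log2 differences above 0 (median 0.48, against 0.00 over all genes tested), immediate-early and heat-shock genes 17 of 18 (median 0.35), BMP and TGF-β genes 24 of 39 (median 0.24) and matrix genes 17 of 37 (median -0.03). Fibroblast markers were above 0 in 6 of 7 (median 0.69, none called) and summed to 7841 and 9199 CPM at telogen and 12731 and 9940 CPM at anagen, and their part in the complement values was not tested. Mouse sex moved with stage, since 1 of 2 telogen and neither anagen library was rich in Xist, and its part was not tested.

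The KO comparison asked what changed in H members with deletion of Alk1. Acvrl1 itself was sparse: it stood at 17.7 and 15.2 CPM in WT telogen, 23.8 and 27.2 CPM in WT anagen and 7.09 and 0 CPM in the KO. With 1 UMI in both KO libraries together, WT telogen was 3.60-fold (95% counting interval 0.628 to 144) higher, and the test gave an adjusted p of 0.28. In all gated cells Acvrl1 stood at 17.4 and 12.9 CPM in WT telogen and 17.1 and 9.65 CPM in the KO, and in endothelial-like cells at 145 ± 11.7 CPM over the WT libraries (SD, n = 4) and 114 ± 16.2 CPM in the KO (n = 2). Whether the 3′ end counted here lies in the deleted part is not given in the sources used here, so these levels do not check the genotype.

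Lypd2 was nearly lost in the KO. Because members were chosen with Lypd2, it was tested in all gated cells, which were chosen without it. There Lypd2 stood at 416 and 513 CPM in WT telogen and 3.42 and 0 CPM in the KO (1845 and 2866 UMIs in WT telogen, 1 and 0 UMIs in the KO), and the level was 235-fold lower by counts (95% counting interval 42.1 to 9282; adjusted p = 0.00011). Of all genes tested in gated cells, 17.6% were called in either direction. Krt19, a keratin of simple epithelia, stood there at 548 and 483 CPM in WT telogen and 116 and 164 CPM in the KO (log2 difference -1.99 ± 0.23 (SE), adjusted p = 0.00084). Cldn22 moved the other way, 143 and 242 CPM in WT telogen and 390.0 and 661 CPM in the KO (1.34 ± 0.31, adjusted p = 0.017). Sfrp5 (-0.41), C2 (-0.61) and Hcn4 (0.17) did not pass. Lypd2 and Cldn22 thus passed in opposite directions. Of the T set, Thbs4 was higher (1.35) and Slc6a13 (-1.62) and Crabp2 (-1.65) were lower, while Tenm2 (-0.47) and Foxd1 (-0.20) did not pass.

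Within H members, 511 of 8721 tested genes were higher in the KO (5.86%) and 685 lower (7.85%), and the median log2 difference of all genes was -0.13. The members compared differed in score, since Lypd2 is one of the H genes. Their mean H score was 4.14 and 4.23 in WT telogen and 3 and 3 in the KO, and their mean T score 1.97 and 1.85 against 1.22 and 1. With Lypd2 left out of the H set, 1189 of 7776 tested genes were called. The part of score in the calls was not tested. Without WT telogen S1 or S2, only 3733 and 3731 genes were tested, with a median log2 difference of 0.06 and 0.05. The KO and WT telogen libraries did not overlap in 60.7% of all tested genes, so that a lack of overlap singles out no gene. Matrix genes were mostly lower: of 36 collagens and other matrix genes, 22 were lower and none higher, with a median of -1.67 (-1.5 with genes at 0 set to their bound). Col1a1, a chain of type I collagen, stood at 2299 and 3437 CPM in WT telogen and 177 and 60.9 CPM in the KO (log2 difference -4.64 ± 0.45 (SE), adjusted p = 0.00015). Col3a1, of type III collagen, stood at 4108 and 5552 CPM in WT telogen and 383 and 414 CPM in the KO (-3.80 ± 0.34 (SE), adjusted p = 9.2e-05). Postn stood at 626 and 775 CPM in WT telogen and 28.4 and 24.4 CPM in the KO (-4.88 ± 0.40 (SE), adjusted p = 6.8e-05). For each, both KO values lay below every WT telogen and WT anagen value. Fn1, fibronectin, stood at 625 and 740.2 CPM in WT telogen and 78.0 and 73.1 CPM in the KO (-3.34 ± 0.33 (SE), adjusted p = 0.00015), Serpinh1, the collagen chaperone, at 1017 and 1094 CPM in WT telogen and 113 and 171 CPM in the KO (-3.13 ± 0.30 (SE), adjusted p = 0.00015) and Pcolce, which enhances procollagen cleavage, at 984 and 1109 CPM in WT telogen and 156 and 122 CPM in the KO (-3.06 ± 0.31 (SE), adjusted p = 0.00019). All 8 matrix genes that the study followed in the KO were lower (median -3.10), but the study picked them on these samples, so their fall here is no independent evidence. The study also reports a fall of these genes and of Lypd2 by qPCR in separately sorted tdTomato+ cells. Those cells were not limited to perineurial cells, and the qPCR is not part of the data used here. Within H members, Col5a3 (-3.48), Col6a2 (-3.36) and Col1a2 (-2.81) were lower in the KO as well, on the log2 scale. Of 6 fibroblast markers tested, 2 were lower and 1 higher (median -1.18). Lum stood at 189 and 217 CPM in WT telogen and 42.6 and 0 CPM in the KO (-3.10 ± 0.51 (SE), adjusted p = 0.0027), Dpt, without a UMI in the KO, was at least 3.04-fold lower, and Pdgfra stood at 36.4 and 33.6 CPM in WT telogen and 177 and 97.5 CPM in the KO (1.89 ± 0.36 (SE), adjusted p = 0.006). The whole fibroblast list, led by Dcn, summed to 7841 and 9199 CPM in WT telogen and 9652 and 8357 CPM in the KO, and the part of fibroblast RNA in the matrix values was not tested. Postn, Vtn, Col3a1 and Pcolce were also among the genes higher in H than in T members.

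**Figure D5:**
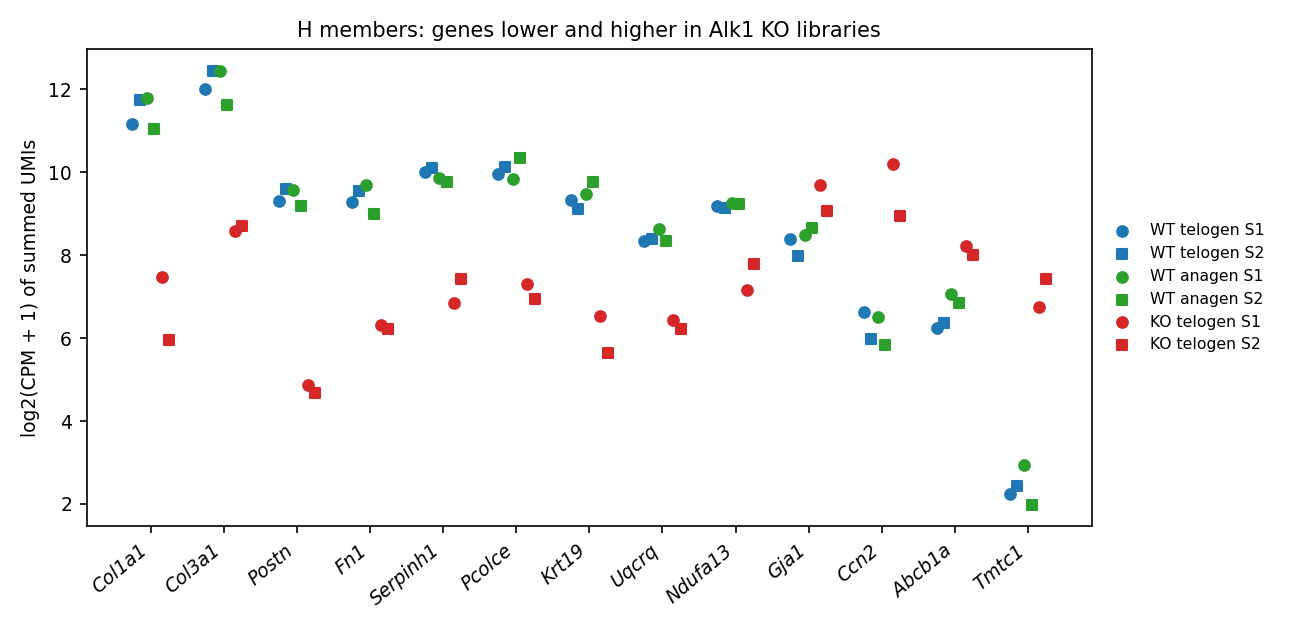
Level of 13 genes in H members as log2(CPM + 1) of summed UMIs, one point per library. The 2 KO libraries lie below all 4 WT libraries for the matrix genes, Krt19 and the 2 respiratory chain genes Uqcrq and Ndufa13, and above them for Gja1, Ccn2, Abcb1a and Tmtc1.

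Other groups that fell were more mixed in kind, and their counts stand beside 7.85% lower and 5.86% higher of all genes tested. Of 39 oxidative phosphorylation genes, 25 were lower and none higher (median -1.17), including Atp5g1 (-2.35), Uqcrq (-2.20), Cox5a (-2.19) and Ndufa4 (-2.02); mitochondrial UMIs, from genes outside this nuclear list, made up a median of 5.09 and 5.51% per member in WT telogen and 3.62 and 2.19% in the KO, and depth differed as given above, and the part of RNA quality was not tested. Krt19 stood at 642 and 549 CPM in WT telogen and 92.2 and 48.7 CPM in the KO (log2 difference -3.16 ± 0.35 (SE), adjusted p = 0.00026). Of 27 basement membrane and integrin genes, 7 were lower and 1 higher: Sparc stood at 5487 and 7023 CPM in WT telogen and 2241 and 1023 CPM in the KO (-2.08 ± 0.41 (SE), adjusted p = 0.0066), Hspg2 (perlecan) and Itga7 were lower (-2.58 and -1.34), Col18a1 was 14.6-fold (95% counting interval 4.99 to 71.1) lower by counts, with 3 UMIs in the KO, and Col4a4 was higher (1.5). Of 21 Wnt genes, 4 were lower and none higher: Sfrp1 (-1.63), Wnt10a (5.63-fold (95% counting interval 1.91 to 27.4) by counts), Wnt5a and Sfrp4. Vtn (-2.53) was the single complement gene of 11 that passed.

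Among genes whose libraries did not overlap, the 10 largest fitted falls were all of genes without a UMI in either KO library, where a fold can only be bounded from 3 UMIs over the group; 54 of the 685 lower genes were of this kind. Tnfaip6, a hyaluronan-binding secreted protein, stood at 142 and 249 CPM in WT telogen and was at least 15.5-fold lower in the KO. The Wnt inhibitor Sfrp4 was at least 10.5-fold lower, Pea15a at least 7.0-fold, Ppa1 6.10-fold, Olfml2b 5.85-fold, the adhesion molecule Vcam1 5.39-fold, the matrix protein Ecm1 5.21-fold, the prostaglandin synthase Ptgs2 5.06-fold and Col16a1 4.95-fold, each as a lower bound. Schwann cell markers summed to 322 and 193 CPM in WT telogen and 0 and 12.2 CPM in the KO, and the part of Schwann cell RNA in these falls was not tested. Wnt5a was at least 3.58-fold lower and the growth factors Ptn and Mdk at least 2.25-fold and 1.95-fold.

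Genes that rose in the KO came from several lists, whose counts stand beside 5.86% higher and 7.85% lower of all genes tested. Ccn2, a matricellular target of YAP and TGF-β, stood at 97.9 and 61.9 CPM in WT telogen and 1170.2 and 487 CPM in the KO (log2 difference 3.28 ± 0.39 (SE), adjusted p = 0.00042). Amotl2 stood at 90.4 and 68.5 CPM in WT telogen and 426 and 256 CPM in the KO (2.0 ± 0.28 (SE), adjusted p = 0.0013), and with Ocln (2.07) and F11r (1.51) made 3 of 13 tight junction genes higher and none lower. The channels Trpv4 (2.56) and Piezo1 (1.83), both opened by mechanical or osmotic stimuli, and the connexin Gja1 (1.08) made 3 of 15 channel genes higher and none lower. Abcb1a stood at 74.9 and 80.9 CPM in WT telogen and 298 and 256 CPM in the KO (1.66 ± 0.24 (SE), adjusted p = 0.0014), with both KO values above all WT values. Among 32 BMP and TGF-β genes, 5 were higher and 1 lower. Id3, a target of BMP receptors, stood at 712 and 638 CPM in WT telogen and 1099 and 1912 CPM in the KO (0.93 ± 0.27 (SE), adjusted p = 0.04), while the anagen values of 1045 and 1369 CPM reached into the KO range. Tgfbr3 (1.38), Chrdl1 (1.23) and Ltbp3 (1.13) were higher and the secreted Fstl1 (-3.25) lower. Of 19 nerve growth and guidance genes, the ligand Nrtn (3.01), Sema3d (1.02) and Ntn4 (1.5) were higher and Ephb2, Ptn and Mdk lower. Boc (1.51) was higher of 7 hedgehog genes, Dhrs3 (2.07) and Rarg (1.63) of 8 retinoid genes, and Zic1 (2.81), Ebf1 (0.95) and Foxp1 (0.84) of 23 developmental transcription factors, of which Prrx1 (-1.45) was lower. Of 17 barrier transporters, Slc1a5 (1.37) and Slc38a2 (0.96) rose beside Abcb1a, and 2 fell, among them Slc16a1 (-1.60). None of 18 immediate-early and heat-shock genes passed in either direction, with Fos at 3097 and 2496 CPM in WT telogen and 4056 and 1949 CPM in the KO.

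Among genes whose libraries did not overlap, the 10 largest rises were of genes that were scarce in WT. Galr2, a receptor of the neuropeptide galanin, stood at 1.60 and 0.635 CPM in WT telogen and 63.8 and 109.6 CPM in the KO (log2 difference 6.03 ± 0.66 (SE), adjusted p = 0.00026). Tmtc1 stood at 3.74 and 4.44 CPM in WT telogen and 106 and 171 CPM in the KO (4.76 ± 0.48 (SE), adjusted p = 0.00019) and Papss2, which makes the sulfate donor for proteoglycans, at 4.81 and 2.86 CPM in WT telogen and 78.0 and 146 CPM in the KO (4.63 ± 0.55 (SE), adjusted p = 0.00042). In each the KO values lay above those of all 4 WT libraries. The others were Rassf4 (5.77), Acss3 (5.65), Coq8a (5.26), Slco4a1 (4.76), Gprc5b (4.74), Abca6 (4.67) and Kbtbd11 (4.59), and of these Acss3 and Slco4a1 stood at 12.2 CPM in KO S2, which is 1 UMI.

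The last question was whether the condition differences themselves differed between H and T members. Between stages, the interaction passed for 26 of 10271 genes (0.253%), of which 21 were more positive in H members. Between KO and WT telogen it passed for 15 of 9018 genes (0.166%), 3 more positive and 12 more negative in H members. Among the latter, Krt19 stood at 435 and 365 CPM in T members of WT telogen and 185 and 386 CPM in the KO, beside the H values given above. T members of the KO were 19 and 9 cells, and the count of genes ran from 1 to 217 as single libraries were left out (1 without either WT telogen library, 217 without KO S1 and 72 without KO S2). The stage count ran from 68 to 104 in the same way. Of 37 matrix genes, 3 passed, all more negative in H members (Thbs2, Lox, Thbs1), and none of the 8 followed by the study passed.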

How the data were processed

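The authors deposited unnormalized UMI counts for every gene and barcode of 6 Chromium 3′ libraries, obtained with Cell Ranger 6.0.1 against mm10. Their later steps (Seurat 4.0, Harmony) are not in these counts. Members, gene lists and comparisons were chosen with earlier results of these data known. UMIs of members were summed per library, filtered with filterByExpr, scaled by TMM and tested with the quasi-likelihood F test of edgeR 4.0.16 (R 4.3.3), and p-values were adjusted by Benjamini-Hochberg over every gene in the fit. The 20 rule genes were left out of counts of calls. H against T members and the interactions had the library as a block. Cells were not treated as replicates, and a sum needed at least 5 cells. With 2 mice per group, p-values measure the spread between these mice only. Shares were compared with exact permutation tests over libraries. Whole libraries held 10615358 to 43317677 UMIs.

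Named are the rule genes, Acvrl1, Cdh5 and Krt19, the 10 largest called rises and falls per comparison whose libraries did not overlap (for H against T, the same way in 6 of 6), or the 3 smallest p-values each way where none was called, and up to 6 called genes of each list. Reference classes (endothelial-like and others) were set by marker genes and served as background. Doublets were scored with Scrublet (scanpy 1.11.5, Python 3.11.15). Its automatic threshold marked under 0.5% of cells in all libraries but 1, so the top 5% by score were taken there, and doublets were removed only in that alternative. Some named genes are not reported here. Tests were tried on simulated data. Other alternatives were DESeq2 1.42.0, other size factors, no filter on low counts, stricter cell limits (500 genes, 5% mitochondrial UMIs), a score of at least 2, thinning to 1500 UMIs (3000 for shares), the replicate number as a block, no library block, all 6 libraries in one fit, and leaving out each library. Chosen after seeing the data were a score margin of 2, the H set without Lypd2, all gated cells, and the 4 WT libraries alone.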

Additional observations from a re-analysis of the deposited data

Results flagged for a closer look

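Stage differences that differed between H and T members numbered 26 by the interaction test. Mag (8.91), Cnp (2.54) and Sox2 (9.56), as log2 differences of the response (H minus T), belong to the Schwann lineage. Schwann cell markers summed to 2004 and 1409 CPM in T members of WT telogen and 37.4 and 32.1 CPM at anagen, against 322, 193, 216 and 22.5 CPM in H members. Ube2c (6.59), Cenpf (3.96) and Cdca3 (7.73) are genes of dividing cells, and among WT libraries their highest H value was that of WT anagen S1. Ube2c stood there at 51.7 CPM and at or below 2.54 CPM in H members of the other WT libraries, against 29.0, 61.4, 16.2 and 0 CPM in T members. Cilp (9.37) and Limch1 (4.18) were more positive in H members too, and Ppp1r14a (-6.18), Rexo2 (-0.92) and Igfbp4 (-0.78) more negative. Ppp1r14a is a smooth muscle gene and stood at 103 CPM in T members of WT anagen S2, where pericyte and smooth muscle markers summed to 704 CPM. In T members of the other libraries Ppp1r14a stood at 2.5 CPM or lower and the markers at 7.51 CPM or lower. The part of RNA from other cells in these differences was not tested.

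KO differences that differed between H and T members numbered 15. Itih5 (4.75), Sema3c (3.82) and Hmgn1 (2.57) were more positive in H members, and Tnfaip6 (-13.26), Errfi1 (-3.98), Id2 (-3.89), Lox (-3.06), Krt19 (-2.44), Ugdh (-2.39), Klf4 (-1.86), Thbs1 (-1.74) and Zfp36l2 (-1.51) more negative. Tnfaip6 stood at 1602 CPM in T members of KO S2 and at 23.2 CPM in those of KO S1, so its value rests on a sum of 9 cells, and its fitted size on H members without a UMI.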

How the results depend on the processing

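Genes called between H and T members were 1288 of 8110 tested as reported. They numbered 996 to 1419 under other size factors, DESeq2 and a score of at least 2, and 1680 of 18782 with no filter. Stricter cell limits gave 687 of 5953 and thinning 540 of 3492. Without the library as a replicate block 273 of 8110 were called. Leaving out a library gave 621 (of 7391, without WT telogen S1) to 1459 (of 8796, without KO S2). Doublet removal and a score margin of 2 left 4 and 2 T members in KO S2, under the minimum of 5 cells for a sum, so that this T sum was also dropped and the effects of both changes cannot be told apart. These settings gave 1432 of 8736 and 1619 of 6858 tested genes between H and T members. Stage calls in H members (0 as reported) numbered 72 by DESeq2, 436 with no filter, 9 at a score of at least 2, 27 after thinning, 88 at a margin of 2, 2 without Lypd2 in the set, 1 with all 6 libraries in one fit and 28 to 152 with a library left out. KO calls (1196) numbered 655 after thinning, 1871 in all gated cells and 359 to 1258 with a library left out. The stage interaction (26) gave 3 by DESeq2, 137 with no filter, 7 with stricter cell limits, 11 after thinning, 15 without Lypd2 and 68 to 104 with a library left out. The KO interaction (15) gave 5 by DESeq2, 4 after thinning and 1 to 217 with a library left out. With T members of KO S1 alone, it gave 0 without likely doublets and 143 at a margin of 2. A lone library was assumed to vary like the other groups. Interaction differences changed sign for Ube2c (-0.64 at a score of at least 2, -1.31 at a margin of 2), Errfi1 (0.00686 at a score of at least 2) and Klf4 (0.25 at a margin of 2, with the KO T sum of 9 cells of KO S1 alone). The KO share difference (-0.104 points) was 0.781 with stricter cell limits, 3.35 without likely doublets, -7.63 after thinning to 3000 UMIs (exact permutation p = 0.333), 12.0 without Lypd2 and -6.85 to 6.65 with a library left out, and the stage share difference ran from -12.5 to 1.02. The causes of these changes were not tested. Over all pairs of a named gene and a setting, the gene stayed past the threshold in 311 and lost it in 3 between H and T members, and in 221 and 16 for the KO. For the interactions it stayed in 75, lost it in 53 and changed sign in 2 for stage, and in 68, 84 and 2 for the KO. Between stages in H members, where no gene was called as reported, a named gene stayed uncalled in 39 pairs and was called in 49. Replicate numbers are not a pairing: over 9455 genes, deviations of same-numbered libraries correlated at -0.051, -0.0077 and 0.053, and the replicate block gave 47 stage calls and 1050 KO calls. The KO sums of H members (141007 and 82090 UMIs) limit what can be seen of genes below 13.4 CPM there.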
